A study of Mus musculus with 3 samples.

Results

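The cholesterol and lipid synthesis genes of E14 mouse ESCs, a male embryonic stem cell line grown with serum and LIF, were examined by RNA-seq. The 34 genes were taken by symbol, and all 34 had a row among the 23926 genes whose names the 2 deposited tables share. Of these genes 33 were measured, meaning that they reached 1 FPKM (the fragments of a gene scaled to transcript length and library size) in at least 1 library of each comparison. They comprised 7 enzymes of the mevalonate steps, 10 enzymes from squalene to cholesterol, 5 genes of the SREBP control circuit, 4 genes of sterol transport, receptor turnover and export, and 8 genes of fatty acid synthesis. There were 3 libraries, 1 per condition, named WT, Tam and DoxTam as labelled. The Tam library came from cells with loxP sites around the *Oct4* DE, an Oct4 transgene that doxycycline induces and a CreER(T2) recombinase, given 4-OH tamoxifen for 48 h. The DoxTam library came from such cells given 4-OH tamoxifen together with doxycycline for 48 h. The edited cells were expanded from picked clones. The paper names its −/− line, with loxP sites in both alleles, as the source of the treated RNA-seq libraries. The labels list the doxycycline- and tamoxifen-inducible constructs for WT as well, and they do not say whether the WT cells carried the loxP sites. No library had tamoxifen without the floxed enhancer, so the drug and any deletion of the enhancer cannot be told apart.

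Cholesterol is built from acetyl-CoA by way of mevalonate and squalene, in a chain of cytosolic and endoplasmic reticulum enzymes. The chain is controlled by sterols themselves: when membranes of the endoplasmic reticulum lose sterol, SCAP escorts the SREBP transcription factors to the Golgi, where they are cut and freed to bind sterol regulatory elements in the promoters of these enzymes. INSIG proteins hold SCAP back when sterol is plentiful, and LXR receptors switch on export genes when oxysterols accumulate. Fatty acid synthesis shares its acetyl-CoA source and part of this control. Tamoxifen is known, apart from its action on the estrogen receptor, to bind sterol enzymes, among them the isomerase EBP and the reductase DHCR7.

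*Pou5f1*, the gene of *Oct4*, stood at 664 FPKM in WT, 529 FPKM in Tam and 458 FPKM in DoxTam. The library that should express the transgene had the lowest level, which goes against its label, so each direction between the treated libraries below is one between libraries as labelled. By qPCR the paper reports *Oct4* as nearly lost in its −/− line with tamoxifen alone. The 529 FPKM in Tam did not show such a loss. By PCR genotyping the paper reports that the enhancer was deleted efficiently after tamoxifen in its lines. Whether the enhancer was deleted in the Tam and DoxTam cells was not tested here. All 8 ESC markers were at 90.7 FPKM or more in each library. Markers of fibroblasts and primitive endoderm were at most 4.52 FPKM and 1.31 FPKM. Of 5 trophectoderm markers, 4 reached 1 FPKM in Tam and 2 did so in each of the other libraries, with *Cdx2* at 0.639 FPKM in WT, 2.82 FPKM in Tam and 0.128 FPKM in DoxTam. The highest level among the 5 went the other way, at 6.55 FPKM in WT, 4.46 FPKM in Tam and 5.43 FPKM in DoxTam. Their summed levels were 11.2 FPKM, 14.0 FPKM and 10.4 FPKM. Depth, estimated from the FPKM of a single fragment, was about 13000000 fragments in WT, 5810000 in Tam and 7040000 in DoxTam. Of 1117 olfactory receptor genes, a family known for its expression in the olfactory epithelium, 380 were above 0 in WT, 790 in Tam and 190 in DoxTam, at mean levels of 0.0718 FPKM, 0.285 FPKM and 0.0616 FPKM. The part of this background in the values below was not tested. Of the members measured, the lowest level in Tam was 1.23 FPKM, for *Abcg1*.

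In Tam, 8 of the 33 measured members were at least 1.5-fold higher than in WT and 0 were lower. Of all 12686 genes measured in this comparison, 6.99% were higher and 3.59% lower by the same limit, which is 0.585 on the log2 scale. The 8 genes were *Fdft1*, *Sqle*, *Cyp51*, *Msmo1* and *Nsdhl* of the sterol steps, *Insig1* of the control circuit, and the desaturases *Scd1* and *Scd2*. Folds are log2 ratios of FPKM + 1, and the median fold was 0.34 over the members and 0.02 over all genes. In DoxTam, 4 members were higher than in WT (*Cyp51*, *Nsdhl*, *Scd1* and *Scd2*) and 0 were lower, beside 4.12% and 5.78% of 12364 genes, and the medians were 0.11 and -0.0028. After rescaling to a total in which all genes count, the numbers of genes higher and lower in Tam went from 887 and 455 to 1370 and 272, and in DoxTam from 510 and 715 to 2727 and 222. That total includes 1203 small RNA genes. With these left out of the total, the numbers were 876 and 470 in Tam and 536 and 692 in DoxTam. The WT library is shared by both comparisons, and a chance value in it enters each of them. With 1 library per condition these are differences between libraries, without a replicate check.

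**Figure D1:**
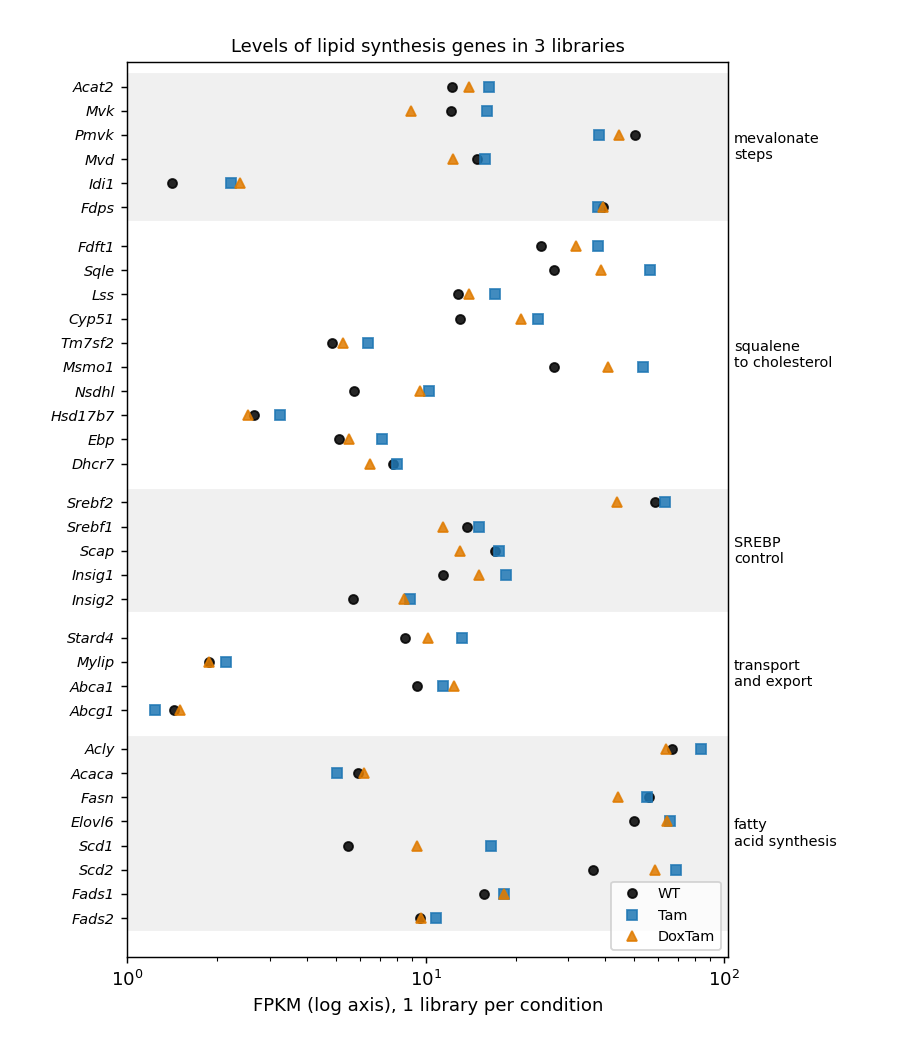
Levels of the 33 measured genes in FPKM (x axis, log scale) in the WT (black circles), Tam (blue squares) and DoxTam (orange triangles) libraries, 1 library per condition, grouped by role. In the squalene to cholesterol group the Tam library holds the highest value for all 10 genes.

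The 10 enzymes from squalene to cholesterol were all above WT in Tam, 5 of them by 1.5-fold, with a median log2 fold of 0.51. Of all genes 52.6% lay above WT in this comparison. Their summed level went from 130 FPKM in WT to 223 FPKM in Tam, with 175 FPKM in DoxTam. The level was in the order WT, DoxTam, Tam for 8 of the 10, against 18.2% of the 12828 genes that reached 1 FPKM in any library. *Hsd17b7* and *Dhcr7* were the others, with DoxTam below WT, though above it (0.22 and 0.09) after rescaling to a total in which all genes count. With the trend over transcript GC content removed they stayed below WT, at -0.28 and -0.15. *Cyp51* and *Nsdhl* left the order after the rescaling, with DoxTam above Tam by 0.021 and 0.11 on the log2 scale.

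*Sqle* encodes squalene epoxidase, which makes the first oxygenation of the chain and limits its rate beside the reductase of the mevalonate steps. It stood at 26.9 FPKM in WT, 56.5 FPKM in Tam and 38.6 FPKM in DoxTam. The log2 fold of 1.04 in Tam was exceeded by 1.83% of all genes, and the fold of 0.51 in DoxTam lay inside the limit. At an estimated 962, 905 and 750 fragments, the counting error of these folds was about 0.07 each, which does not include the variation between cultures. *Sqle* lies on chromosome 15 of mm9, from 59146647 to 59162748.

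*Msmo1*, the C4 methyl oxidase that removes the methyl groups of lanosterol derivatives, followed the same order, at 26.9 FPKM, 53.4 FPKM and 40.7 FPKM in WT, Tam and DoxTam. Its log2 fold was 0.96 in Tam and 0.58 in DoxTam, the latter just under the limit of 0.585, although the plain ratio to WT was 1.51. *Nsdhl*, the dehydrogenase of the same demethylation, stood at 5.74 FPKM, 10.3 FPKM and 9.59 FPKM, with log2 folds of 0.74 and 0.65. *Cyp51*, the lanosterol demethylase, was at 13.0 FPKM, 23.8 FPKM and 20.8 FPKM, with log2 folds of 0.83 and 0.64. The 3 enzymes of this demethylation stretch thus lay above WT in both treated libraries. Before rescaling, *Cyp51* and *Nsdhl* were the only measured sterol enzymes past the limit in both. The counting error of the *Nsdhl* fold in DoxTam was about 0.16, more than its distance from *Msmo1*. With the GC trend removed the DoxTam folds of *Msmo1*, *Cyp51* and *Nsdhl* were 0.39, 0.50 and 0.49, all inside the limit. *Hsd17b7*, the ketoreductase that completes each round of the same stretch, stood apart, at 2.66 FPKM, 3.24 FPKM and 2.53 FPKM, with log2 folds of 0.21 and -0.05.

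*Fdft1* encodes squalene synthase, which commits farnesyl units to sterols. It was at 24.3 FPKM in WT, 37.6 FPKM in Tam and 31.8 FPKM in DoxTam, a log2 fold of 0.61 in Tam and 0.37 in DoxTam. *Lss*, the cyclase that forms lanosterol, stood at 12.8 FPKM, 17.1 FPKM and 14.0 FPKM, inside the limit in both comparisons. *Tm7sf2*, a C14 sterol reductase, was at 4.84 FPKM, 6.40 FPKM and 5.28 FPKM. These genes share the order WT, DoxTam, Tam, with smaller steps for *Lss* and *Tm7sf2*.

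*Ebp* and *Dhcr7*, whose proteins are the sterol isomerase and the last reductase of the chain, differed less between the libraries than *Sqle* or *Msmo1*. *Ebp* stood at 5.11 FPKM in WT, 7.15 FPKM in Tam and 5.52 FPKM in DoxTam, with log2 folds of 0.41 and 0.09. *Dhcr7* was at 7.76 FPKM, 7.98 FPKM and 6.48 FPKM, with log2 folds of 0.04 and -0.23. The counting error of the folds in Tam was about 0.22 for *Ebp* and 0.15 for *Dhcr7*. Per length, *Sqle* was at 3.46 times the level of *Dhcr7* in WT, 7.08 times in Tam and 5.96 times in DoxTam.

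**Figure D2:**
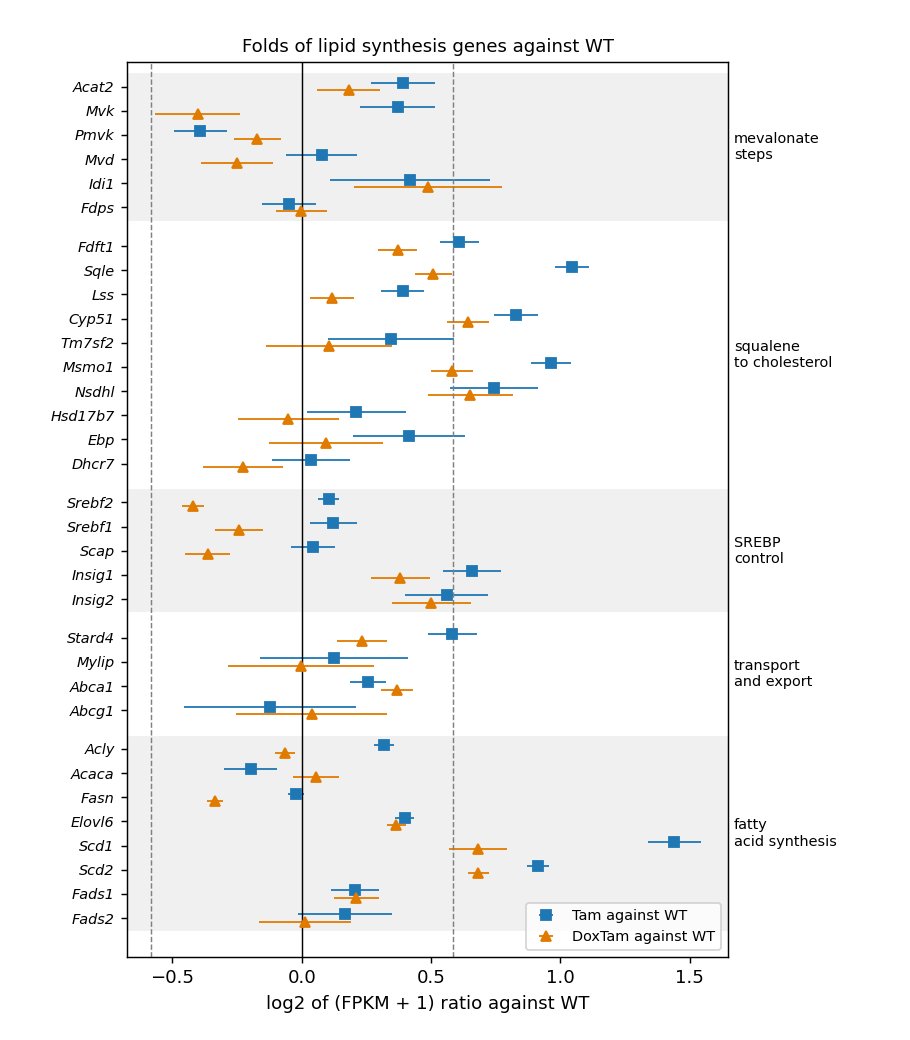
Log2 ratio of FPKM + 1 against WT (x axis) for each gene in Tam (blue squares) and DoxTam (orange triangles), grouped by role, with dashed lines at 1.5-fold. Bars are 1 standard error from the estimated number of fragments and cover counting error only. *Sqle* and *Scd1* lie past 1.0 in Tam, and 0 genes lie past the lower line.

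The folds of these libraries followed the GC content of the transcripts, so each was also computed with the GC trend removed. All 8 genes that were higher in Tam were past the limit after this step, with *Scd1* at 1.39, *Sqle* at 1.03, *Scd2* at 0.90, *Msmo1* at 0.87, *Cyp51* at 0.75, *Nsdhl* at 0.66, and *Fdft1* and *Insig1* at 0.61. In DoxTam only *Scd2* (0.65) was past it, and *Scd1* (0.57), *Cyp51* (0.50) and *Nsdhl* (0.49) were inside. Of all genes, 671 of 11851 were higher in Tam and 243 of 11595 in DoxTam after this step. The median GC content was 47.5% over the 8 genes, 50.1% over the 33 members with a value and 50.7% over all genes.

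The mevalonate steps showed no common direction before rescaling or removal of the GC trend. Of 6 measured enzymes, 0 were past the limit in either comparison with WT, with log2 folds from -0.39 to 0.42 in Tam and from -0.40 to 0.49 in DoxTam. Their summed level, without rescaling, was 130 FPKM in WT, 126 FPKM in Tam and 121 FPKM in DoxTam. After rescaling to a total in which all genes count, 5 of the 6 were above WT in each comparison. So were 67.9% of all genes in Tam and 80.1% in DoxTam. *Idi1* was then past the limit in DoxTam, at 0.75, as were 2727 of all 12364 genes. With the GC trend removed instead, 4 of the 6 were above WT in Tam and 5 in DoxTam. So were 52.9% and 49.0% of all genes, and *Idi1* was at 0.18 in DoxTam. *Acat2*, the cytosolic thiolase that joins acetyl-CoA units, was at 12.2 FPKM in WT, 16.3 FPKM in Tam and 14.0 FPKM in DoxTam. *Mvk*, mevalonate kinase, stood at 12.2 FPKM, 16.0 FPKM and 8.95 FPKM, above WT in Tam and below it in DoxTam, where its log2 fold of -0.40 became -0.073 after the rescaling. *Pmvk*, the next kinase, was highest in WT, at 50.2 FPKM against 38.0 FPKM and 44.5 FPKM, but its log2 fold of -0.17 in DoxTam became 0.18 after the rescaling and 0.07 with the GC trend removed. The level of *Mvd*, the decarboxylase that follows, was 14.9 FPKM, 15.8 FPKM and 12.4 FPKM. Its log2 fold of -0.25 in DoxTam became 0.09 after the rescaling and 0.06 with the GC trend removed.

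*Fdps*, which makes farnesyl diphosphate for sterols and for protein prenylation alike, was near constant at 39.3 FPKM, 37.9 FPKM and 39.2 FPKM. *Idi1*, the isomerase that makes the allylic unit, was low, at 1.41 FPKM in WT, 2.23 FPKM in Tam and 2.39 FPKM in DoxTam. It rests on an estimated 53, 37 and 48 fragments, with a counting error of about 0.31 on its log2 fold of 0.42 in Tam. The deposited tables mark it as too low for a test, as they do *Mylip* and *Abcg1*, and *Hsd17b7* in DoxTam only. *Hmgcs1*, the synthase at the head of the pathway, was listed at 0 FPKM in all 3 libraries. Its row places it on an unplaced contig of chromosome 13, and 84 of the 90 rows on unplaced contigs were at 0 throughout, against 2872 of all 23926 rows. A level of *Hmgcs1* in these cells therefore cannot be read from this row.

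Sequences of the promoters are shown for the members past the limit in Tam for which the RefSeq table held one, and for *Hmgcs1*, the single member whose window held a consensus sterol regulatory element (build GRCm38.p6, 250 bases before the start, written 5′ to 3′ along the gene). This build is not that of the expression tables. Entries were found for 26 of the 34 members, and *Fdps*, *Fdft1*, *Sqle*, *Stard4*, *Scd1*, *Scd2*, *Fads1* and *Abcg1* had none. Capitals mark the CCAAT box on either strand (CCAAT or ATTGG, the letters bound by NF-Y, a partner of SREBP at many sterol promoters) and, in *Hmgcs1*, the element TCACNCCAC.
*Cyp51* (chr5:4104698-4104947, minus strand): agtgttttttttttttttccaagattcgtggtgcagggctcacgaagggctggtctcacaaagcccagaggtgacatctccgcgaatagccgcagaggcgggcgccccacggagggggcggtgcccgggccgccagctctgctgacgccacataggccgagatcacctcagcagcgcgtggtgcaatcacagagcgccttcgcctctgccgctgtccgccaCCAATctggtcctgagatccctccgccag
*Msmo1* (chr8:64733579-64733828, minus strand): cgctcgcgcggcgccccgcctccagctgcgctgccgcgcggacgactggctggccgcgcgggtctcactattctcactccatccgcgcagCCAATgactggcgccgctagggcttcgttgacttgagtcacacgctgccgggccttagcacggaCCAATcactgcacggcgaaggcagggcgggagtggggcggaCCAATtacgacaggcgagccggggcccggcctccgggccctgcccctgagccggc
*Nsdhl* (chrX:72918271-72918520, plus strand): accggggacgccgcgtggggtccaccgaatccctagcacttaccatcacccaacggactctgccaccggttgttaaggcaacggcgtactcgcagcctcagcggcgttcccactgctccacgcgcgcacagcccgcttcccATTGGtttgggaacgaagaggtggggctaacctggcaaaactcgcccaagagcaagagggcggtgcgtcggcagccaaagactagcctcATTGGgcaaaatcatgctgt
*Insig1* (chr5:28071162-28071411, plus strand): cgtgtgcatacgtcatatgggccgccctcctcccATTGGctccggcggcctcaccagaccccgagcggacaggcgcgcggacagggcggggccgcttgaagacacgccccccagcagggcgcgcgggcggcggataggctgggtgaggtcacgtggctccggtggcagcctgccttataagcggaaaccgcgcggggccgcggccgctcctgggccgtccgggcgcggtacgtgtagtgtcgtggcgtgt
*Hmgcs1* (chr13:119690101-119690350, plus strand): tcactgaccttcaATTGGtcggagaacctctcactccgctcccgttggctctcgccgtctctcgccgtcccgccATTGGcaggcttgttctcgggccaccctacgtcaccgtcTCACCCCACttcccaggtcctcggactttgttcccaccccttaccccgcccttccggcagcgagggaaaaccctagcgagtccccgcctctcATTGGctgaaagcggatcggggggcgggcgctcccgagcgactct

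The CCAAT box was found in a window of 13 of the 14 sterol synthesis enzymes with an entry, the exception being *Acat2*, and in 37.5% of the 27025 genes of the table. At least 2 boxes were found for 9 of the 14, among them *Msmo1* with 3, *Nsdhl* with 2 and *Mvk* with 5, against 11.5% of all genes. *Cyp51* and *Insig1* had 1 each. The GC box GGGCGG, bound by SP1, was found for 13 of the 14, *Pmvk* being the exception, and for 35.4% of all genes. The E-box CACGTG was found for 2 of the 14, *Hsd17b7* and *Dhcr7*, and for 6.86% of all genes. Among the other members it was found for *Scap*, *Insig1* and *Abca1*. The element TCACNCCAC was found for 1 of 26 members and 1.22% of all genes. Only this exact form was searched, so sterol regulatory elements that differ from it by a letter were not counted. All motifs were searched on both strands, matches of different motifs may overlap, and a gene with several windows was counted by the window with the most matches. A match is a description of these letters, and binding was not measured. Members with many CCAAT boxes did not all lie far above WT in Tam: *Mvk* with 5 had a log2 fold of 0.37 and *Cyp51* with 1 had 0.83.

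In the control circuit the *Insig* genes were above WT in both treated libraries, while *Srebf2*, *Srebf1* and *Scap* lay near WT in Tam and below it in DoxTam, a direction that depended on the scaling for *Srebf1*. *Insig1*, itself a target of SREBP, stood at 11.4 FPKM in WT, 18.5 FPKM in Tam and 15.1 FPKM in DoxTam, with log2 folds of 0.66 and 0.38. *Insig2* was at 5.68 FPKM, 8.86 FPKM and 8.46 FPKM, with log2 folds of 0.56 and 0.50, inside the limit in both. After rescaling to a total in which all genes count they were 0.69 and 0.83, past it. With the GC trend removed they were 0.48 and 0.35. Per length, *Insig1* was at 2.0 times the level of *Insig2* in WT, 2.09 times in Tam and 1.79 times in DoxTam.

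*Srebf2*, which encodes the factor that drives cholesterol synthesis, was at 58.7 FPKM in WT, 63.2 FPKM in Tam and 43.6 FPKM in DoxTam. *Srebf1*, whose isoforms mainly drive fatty acid genes, stood at 13.7 FPKM, 15.0 FPKM and 11.5 FPKM. *Scap*, the escort, was at 17.0 FPKM, 17.6 FPKM and 13.0 FPKM. Their log2 folds were 0.10, 0.12 and 0.04 in Tam and -0.42, -0.24 and -0.36 in DoxTam, the latter becoming -0.066, 0.09 and -0.025 after the rescaling. These negative folds were -0.16, 0.04 and -0.06 with the GC trend removed, the sign of *Srebf1* changing, in transcripts of 57.5%, 58.4% and 59.2% GC. The control of SREBP activity lies mostly in the cutting of the protein, which RNA levels do not show.

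Among the transport genes, *Stard4*, a carrier of sterol between membranes and a target of SREBP2, stood at 8.50 FPKM in WT, 13.2 FPKM in Tam and 10.1 FPKM in DoxTam. Its log2 fold in Tam was 0.58, just inside the limit, 0.72 after the rescaling and 0.47 with the GC trend removed. In DoxTam the fold was 0.23, and 0.005 with the GC trend removed. The genes that LXR is known to drive gave a mixed picture. *Abca1*, the transporter that loads sterol onto apolipoprotein A-I, was at 9.37 FPKM, 11.4 FPKM and 12.4 FPKM, highest in DoxTam. Its log2 fold there was 0.37, and 0.71 after the rescaling, past the limit, but 0.27 with the GC trend removed. *Abcg1*, a transporter to HDL, was at 1.43 FPKM, 1.23 FPKM and 1.5 FPKM, and *Mylip*, a ubiquitin ligase that removes lipoprotein receptors, at 1.88 FPKM, 2.14 FPKM and 1.88 FPKM. For *Abcg1* and *Mylip* the folds against WT in both comparisons were smaller than the counting error, which was 0.28 to 0.33.

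Among the fatty acid synthesis genes only *Scd1* and *Scd2* were past the limit against WT, joined in DoxTam by *Elovl6* after the rescaling. *Scd1*, the stearoyl-CoA desaturase that makes oleate, had the largest fold of all members in Tam, with 16.6 FPKM against 5.47 FPKM in WT and 9.37 FPKM in DoxTam. The log2 folds were 1.44 and 0.68, and 0.662% of all genes had a higher one in Tam. *Scd2*, its paralog and the more abundant isoform in these cells, stood at 36.2 FPKM in WT, 69.1 FPKM in Tam and 58.7 FPKM in DoxTam, with log2 folds of 0.91 and 0.68. Per length, *Scd1* was at 0.151 times the level of *Scd2* in WT, 0.239 times in Tam and 0.160 times in DoxTam. The genes lie near each other on chromosome 19 (mm9, 44468940 to 44482199 and 44368166 to 44381352), and reads shared between these similar transcripts make the split between them uncertain.

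The enzymes that build the chain differed less from WT. *Acly*, which makes cytosolic acetyl-CoA from citrate, stood at 66.8 FPKM in WT, 83.5 FPKM in Tam and 63.9 FPKM in DoxTam. *Acaca*, the carboxylase that makes malonyl-CoA, was at 5.93 FPKM, 5.04 FPKM and 6.19 FPKM, lowest in Tam. *Fasn*, the synthase, was at 56.0 FPKM, 55.2 FPKM and 44.2 FPKM, with a log2 fold of -0.33 in DoxTam that was -0.08 with the GC trend removed and 0.02 after the rescaling. *Elovl6*, which lengthens palmitate to stearate, the substrate of the SCD enzymes, was above WT in both, at 49.8 FPKM, 65.9 FPKM and 64.4 FPKM. Its log2 fold in DoxTam was 0.37, with 0.72 after the rescaling and 0.14 with the GC trend removed.

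The desaturases of polyunsaturated chains stayed near WT. *Fads1* was at 15.7 FPKM, 18.3 FPKM and 18.3 FPKM in WT, Tam and DoxTam, and *Fads2* at 9.54 FPKM, 10.8 FPKM and 9.63 FPKM. Of the 8 fatty acid genes, 2 were past the limit in each comparison with WT, both of them *Scd* genes, and the medians were 0.26 in Tam and 0.13 in DoxTam.

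Between the treated libraries, which were deposited in separate tables, DoxTam lay below Tam for 26 of the 33 members, and for all 10 sterol enzymes and all 5 control genes, beside 6698 of all 12628 genes. Past the limit were 2, *Mvk* (-0.77) and *Scd1* (-0.76), and 0 members were higher, beside 5.73% of 12628 genes lower and 2.09% higher (724 and 264, or 517 and 761 after the rescaling). The median was -0.26 for the sterol enzymes, -0.24 for all members and -0.02 for all genes. The next in size were *Sqle* (-0.54) and *Srebf2* (-0.52). *Pmvk* (0.22), *Acaca* (0.25) and *Abcg1* (0.16) were the members with the highest values in favour of DoxTam. After rescaling to a total in which all genes count, 20 of the 33 members, 8 of the 10 sterol enzymes, 4 of the 5 control genes and 3503 of all genes were below Tam, and neither *Mvk* nor *Scd1* passed the limit. The WT levels of all 34 members were identical in the tables. The Tam library enters this comparison and that with WT, so a chance value of Tam moves them in opposite directions.

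**Figure D3:**
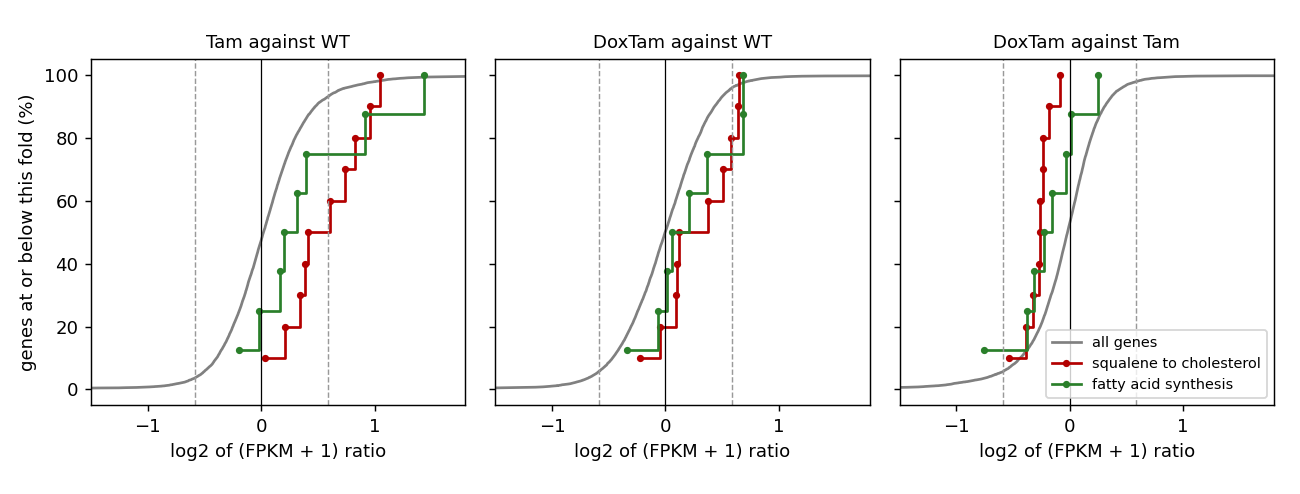
Percent of genes (y axis) at or below each log2 ratio of FPKM + 1 (x axis) in the 3 comparisons, for all measured genes (grey), the 10 enzymes from squalene to cholesterol (red) and the 8 fatty acid synthesis genes (green), with dashed lines at 1.5-fold. All 10 sterol enzymes lie to the right of 0 for Tam against WT and to the left of 0 for DoxTam against Tam, where *Cyp51* and *Nsdhl* lie to the right after rescaling to a total in which all genes count.

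A wider list of 30 genes of sterol uptake, esterification, SREBP processing and lipid supply gave 26 measured genes in Tam, of which 6 were higher and 0 lower, beside 6.99% and 3.59% of all genes, with a median log2 fold of 0.28. Among the higher genes was *Tmem97*, an endoplasmic reticulum protein of sterol handling, whose level was 13.9 FPKM in WT and 21.8 FPKM in Tam (log2 fold 0.62). *Npc2*, which carries cholesterol out of lysosomes, went from 24.7 FPKM in WT to 46.7 FPKM in Tam (log2 fold 0.89). *Me1*, the malic enzyme that supplies NADPH to lipid synthesis, stood at 6.36 FPKM and 10.7 FPKM (log2 fold 0.67). In DoxTam 1 of 24 was higher and 0 were lower, beside 4.12% and 5.78% of all genes. It was *Acsl3*, an acyl-CoA ligase of lipid droplets, with 10.9 FPKM in WT and 17.8 FPKM in DoxTam (log2 fold 0.66). With the GC trend removed the counts were 6 in Tam and 2 in DoxTam, beside 671 of 11851 and 243 of 11595 genes. They were of partly different genes: *Me1* (0.57 in Tam) and *Acsl3* (0.42 in DoxTam) were then inside the limit and *Tmem97* (0.60 in DoxTam) past it. After rescaling to a total in which all genes count, 9 were higher in Tam and 9 in DoxTam. Of all genes, 1370 of 12686 were then higher in Tam and 2727 of 12364 in DoxTam. The protease genes that cut SREBP, *Mbtps1* and *Mbtps2*, were within 0.29 log2 units of WT in both.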

How the data were processed

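RNA-seq libraries of the WT, Tam and DoxTam conditions (1 each) were made by the authors from total RNA with a stranded kit. The authors deposited 2 gene tables of FPKM values, made with TopHat, Bowtie and Cufflinks 2.0.0 on mm9 by the submitters' processing notes, and no source used here names the annotation. Each table holds a treated library and WT, whose values were unequal by more than 1% for 2 genes. FPKM is relative to gene length and mapped fragments, so a few abundant RNAs shift all other values. Columns of log2 folds, test statistics, p-values and q-values hold the authors' own comparison and were not used.

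Folds were log2 of (FPKM + 1) ratios over genes that reached 1 FPKM in either library, with 1.5-fold as the limit and no test. Depth, and from it approximate fragments and counting errors, came from the value at which FPKM times GENCODE transcript length piled up for single fragments. The GC trend was a lowess fit (span 0.2, statsmodels 0.14.6). Alternatives were other pseudocounts, filters, scalings and limits, the GC trend removed and rows with status OK. The steps were tested on simulated data, for genes at 5 FPKM or more in WT changed 2-fold, with counting noise only. Smaller changes and genes at lower levels were not simulated. All members are named, other genes by the 1.5-fold limit and 1 FPKM in both libraries. Members and lists were chosen with earlier results of these data known. Some genes of the wider lists are not reported here.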

Additional observations from a re-analysis of the deposited data

How the results depend on the processing

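The count of members higher in Tam than in WT went from 8 to 5 with a pseudocount of 5 FPKM (without *Fdft1*, *Insig1* and *Nsdhl*) and to 2 at 2-fold (*Sqle* and *Scd1*). Of all 12686 genes, 296 were higher with that pseudocount and 270 at 2-fold. The count in DoxTam went from 4 to 1 with the pseudocount of 5 FPKM and with the GC trend removed, to 0 at 2-fold, and to 12 after rescaling to the same total with all genes counted. With the GC trend removed, 243 of 11595 genes were higher in DoxTam. Of all 12364 genes, 176 were higher with that pseudocount, 88 at 2-fold and 2727 after the rescaling. That rescaling moved the median fold of all genes to 0.15 in Tam, 0.32 in DoxTam and 0.17 for DoxTam against Tam. With small RNA genes left out of the total, these medians were 0.016, 0.005 and -0.007. The count of members higher in DoxTam was then 5, beside 536 of 12364 genes. The members lower in DoxTam than in Tam went from 2 to 1 with the pseudocount of 5 FPKM (*Mvk*) and to 0 after rescaling with all genes counted and at 2-fold. Of all 12628 genes, 194, 517 and 250 were lower at these settings. The median log2 fold of the 16 sterol synthesis enzymes measured was 0.39 in Tam, 0.28 with a pseudocount of 5 FPKM and 0.52 after rescaling with all genes counted. For DoxTam the latter took it from 0.11 to 0.44, and for DoxTam against Tam from -0.25 to -0.064. The cause of these changes was not tested beyond the scaling itself, where the 2 totals differ only by the 1203 small RNA genes. No member past the limit changed sign under any alternative run. The members under 2 FPKM in WT rest on at most 75 estimated fragments, and their folds are imprecise. The replicates needed for a test of any fold are not among these libraries. No paired analysis was possible because each condition has 1 library.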

Other observations

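Fatty acid oxidation, the opposite process, was examined with a list of 10 genes, of which 9 were measured. In Tam 1 was higher than in WT by 1.5-fold and 0 were lower, and in DoxTam 0 were higher and 0 lower. Over all genes 6.99% were higher and 3.59% lower in Tam, and 4.12% and 5.78% in DoxTam. After rescaling to a total in which all genes count, 2 of the 9 were higher in each comparison. Of all genes, 1370 of 12686 were then higher in Tam and 2727 of 12364 in DoxTam. The gene was *Slc25a20*, the carrier that brings acylcarnitines into mitochondria, at 17.4 FPKM in WT, 48.3 FPKM in Tam and 19.2 FPKM in DoxTam. Its log2 fold of 1.42 in Tam was close to that of *Scd1*, and it was 1.42 with the GC trend removed as well. *Cpt2*, a carnitine palmitoyltransferase, had a log2 fold of -0.29 in Tam and 0.01 in DoxTam. *Cpt1a*, which limits the entry of fatty acids into mitochondria, was at 35.6 FPKM, 42.3 FPKM and 37.9 FPKM in WT, Tam and DoxTam.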
